A study of Mus musculus with 2 samples.

Results

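The genes described here are 10 components of the basement membrane, the thin sheet of matrix beneath endothelium and epithelium and around vessels: Lama4, Lama5, Lamb1, Lamb2, Lamc1, Nid1, Nid2, Hspg2, Sparc and Agrn. They were taken by symbol from 28200 genes listed over 2 single-cell RNA libraries of mouse liver, and all 10 were listed in both. Each gene is given as its level in every cell class, a class being a set of cells picked by marker genes that include none of the 10.

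The libraries came from cells of male mice after partial ligation of the inferior vena cava, which impedes outflow of blood from the liver and causes congestion. The library here called the library labelled control has the genotype Ctgffl/fl, and the library labelled knockout has Cdh5-CreERT2; Ctgffl/fl. Both carry the floxed Ctgf alleles (current symbol Ccn2, a secreted matrix-associated growth regulator), and the knockout adds a tamoxifen-inducible Cre driven by the promoter of Cdh5, an endothelial junction gene. Most hepatocytes were depleted by slow centrifugation and a density gradient took out erythrocytes and dead cells before capture, and both samples carry the same batch label. Each genotype has 1 library, so no comparison below has a replicate, no test between genotypes was possible, and a difference between genotypes cannot be told apart from one between these libraries. The sample titles go the other way round from the genotypes and the library names. Levels are in CPM, the counts of a gene scaled to the total of its class. Ccn2 stood at 977 CPM in endothelial-like cells of the library labelled control and at 4.67 CPM in those labelled knockout, which goes with the genotypes and against the titles. In stellate-like cells Ccn2 was at 1100 CPM (1066 to 1133) and 1099 CPM (1068 to 1130).

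Laminins are cross-shaped trimers of an alpha, a beta and a gamma chain that polymerise at the cell surface. Nidogens tie the laminin sheet to the type IV collagen network, and the heparan sulphate proteoglycans perlecan and agrin bind both sheet and growth factors. Sparc is a collagen-binding glycoprotein that takes part in the assembly of type IV collagen. The liver sinusoid normally has only a sparse, discontinuous basement membrane, and its endothelial and stellate cells lay down more of it in chronic injury.

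Promoters are shown because their genes carry the contrasts below. Sparc and Nid1 were lower in the library labelled knockout in both main classes, Nid1 by less than 1.5-fold in endothelial-like cells. Lama5 was higher in 1 class and lower in the other. Each sequence is the 250 bases before the transcription start, from RefSeq on GRCm38.p6, 5′ to 3′ on the gene's strand, and capitals mark motif matches on either strand.
Sparc, chr11:55420081-55420330, minus strand: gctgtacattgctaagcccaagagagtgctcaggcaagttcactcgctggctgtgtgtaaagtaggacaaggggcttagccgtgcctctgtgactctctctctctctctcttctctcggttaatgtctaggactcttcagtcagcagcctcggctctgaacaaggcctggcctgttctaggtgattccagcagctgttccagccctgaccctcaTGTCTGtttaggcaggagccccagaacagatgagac
Nid1, chr13:13437352-13437601, plus strand: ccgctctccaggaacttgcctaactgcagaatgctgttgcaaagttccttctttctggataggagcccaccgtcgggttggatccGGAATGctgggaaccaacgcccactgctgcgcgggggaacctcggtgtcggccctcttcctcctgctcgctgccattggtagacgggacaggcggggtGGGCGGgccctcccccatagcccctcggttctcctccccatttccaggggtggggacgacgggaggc
Lama5, chr2:180225860-180226109, minus strand: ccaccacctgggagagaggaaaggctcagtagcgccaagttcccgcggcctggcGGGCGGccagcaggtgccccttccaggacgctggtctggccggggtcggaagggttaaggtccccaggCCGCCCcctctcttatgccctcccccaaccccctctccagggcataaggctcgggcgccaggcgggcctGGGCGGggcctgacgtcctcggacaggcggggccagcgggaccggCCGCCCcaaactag
These motifs were searched on both strands: the TATA box TATAAA, the GC box GGGCGG, the TEAD core GGAATG and the SMAD-type element CAGACA. Promoters were found for 7 of the 10 genes, with 8 windows because Agrn has more than 1 start, and not for Lama4, Lamc1 and Nid2. The capitals in Sparc are 1 SMAD-type match on the other strand, those in Nid1 are 1 TEAD core and 1 GC box, and those in Lama5 are 4 GC boxes. A GC box was present in 6 of the 8 windows, against 32.7% of all 32851 windows of this length. TATAAA was in 0 of the 8 (12.4% of all windows), GGAATG in 1 (12.6%) and CAGACA in 2 (17.1%). These are letter matches only.

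Each library had 10000 barcodes, of which 2 were shared, and the totals were 106208933 counts (labelled control) and 129802501 counts (labelled knockout). The cell filter kept 7917 and 8799 cells, after 20.8% and 11.8% of barcodes had exceeded the mitochondrial limit, and 7546 and 8361 remained after doublet removal. The endothelial-like class had 1592 and 3131 cells and the stellate-like class 399 and 478. All 8 endothelial markers and all 9 stellate markers were detected in their class, in a median of 98.6% and 98.3% of its cells. The classes were picked by these same markers, so this detection follows in part from the picking. The contractile mesenchymal-like class had 106 and 16 cells and the mesothelial-like class 37 and 13, so their values rest on few cells. A further 35.8% and 26.2% of the kept cells were in no class, mostly because they carried markers of more than 1 lineage. In an unsupervised clustering made without these genes, 1 cluster held 64.1% of the endothelial-like cells labelled control and 8.50% of those labelled knockout, while another held 4.08% and 54.8%, so the class spans different clusters in the 2 libraries. A single cluster held 96.7% and 97.3% of the stellate-like cells.

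The 10 genes were concentrated in endothelial and mesenchymal cells in both libraries. Lama4, the alpha chain of vascular laminins, and Hspg2, which encodes perlecan, were highest in endothelial-like cells. Lamb1, Lamc1, Nid1, Nid2 and Sparc were higher in stellate-like than in endothelial-like cells. Lamb1 differed most between the classes, with a stellate-over-endothelial log2 ratio of 7.69 (95% interval 7.24 to 8.17) labelled control and 8.61 (8.14 to 9.12) labelled knockout. For Lamc1 that log2 ratio was 2.98 (2.91 to 3.05) and 3.14 (3.06 to 3.22), and for Lama4 it was −2.41 (−2.66 to −2.17) and −4.73 (−5.14 to −4.35). Agrn, the other proteoglycan, had overlapping intervals in the 2 classes in both libraries, at 59.6 and 62.7 CPM labelled control and 42.7 and 44.7 CPM labelled knockout. Lamb2 also had overlapping intervals of its levels, at 39.0 CPM in endothelial-like and 38.2 CPM in stellate-like cells labelled control and 46.3 and 37.8 CPM labelled knockout. Its stellate-over-endothelial log2 ratio was −0.03 (−0.31 to 0.24) labelled control. Labelled knockout it was −0.29 (−0.54 to −0.06), which excludes 0. All intervals are exact at 95%, cover counting error only and say nothing of the spread between mice.

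**Figure D1:**
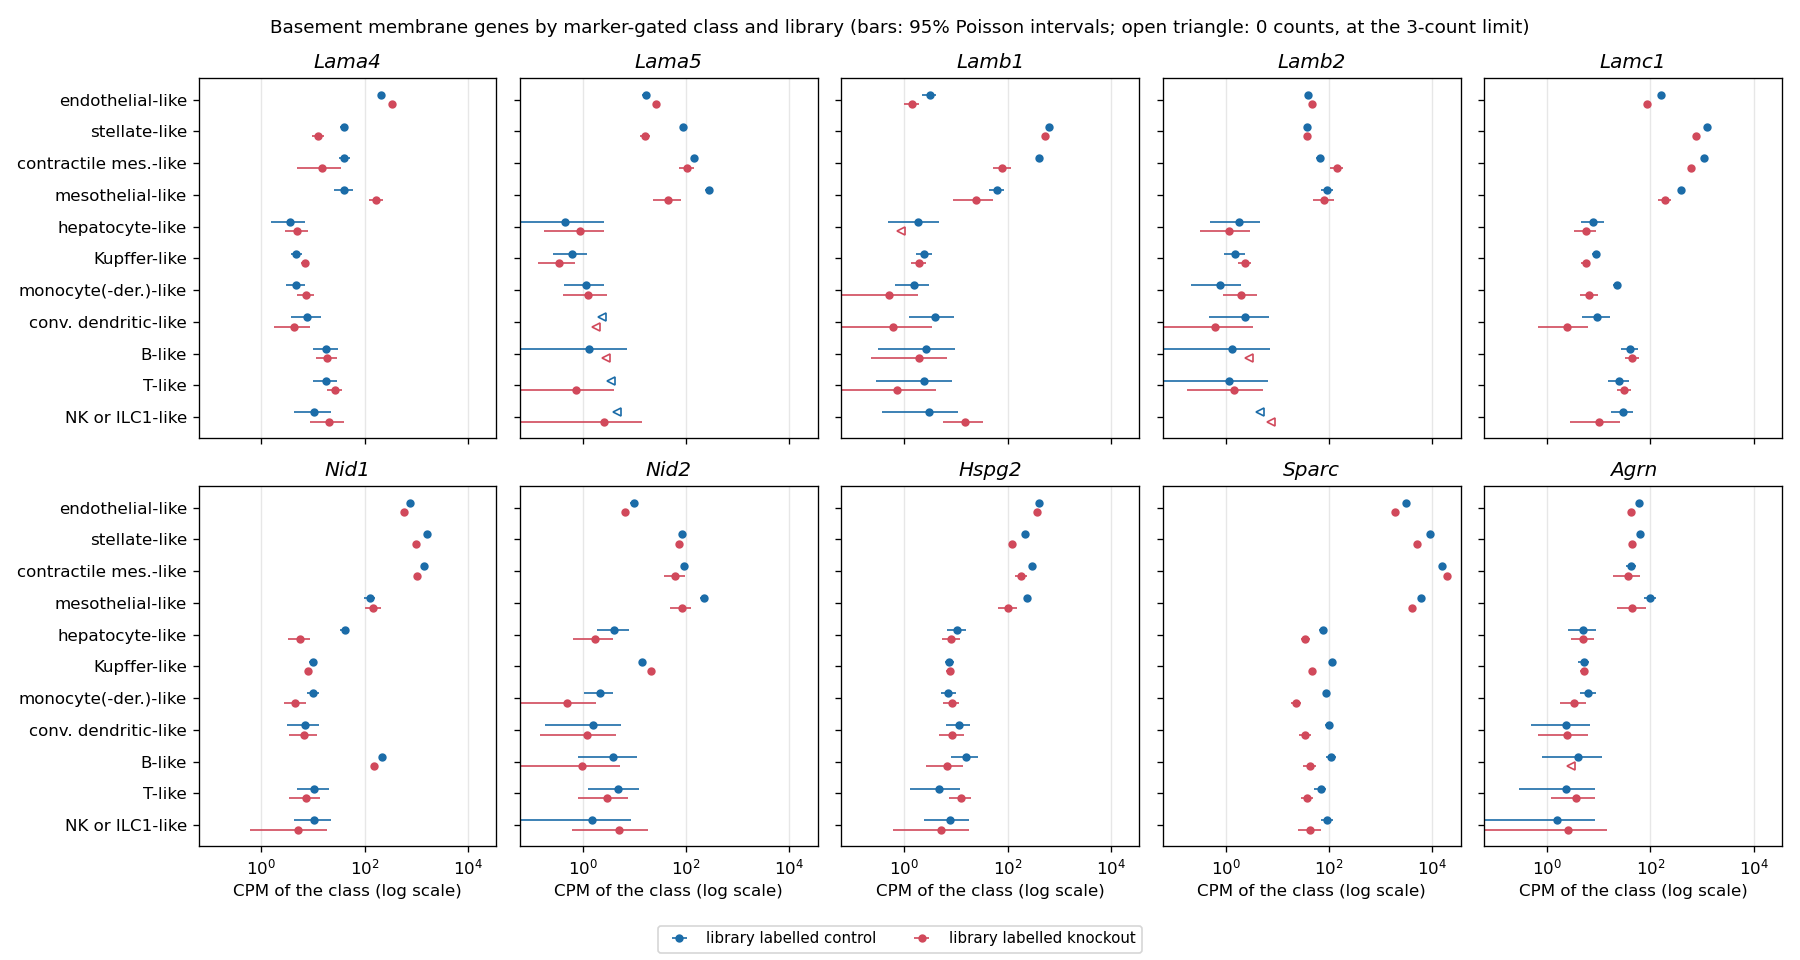
Level of each gene (CPM of the class, log scale) in 11 marker-gated classes, blue for the library labelled control and red for that labelled knockout, with 95% Poisson intervals. For most genes, points for endothelial-like and mesenchymal classes lie to the right of most immune classes. Exceptions include Lamb1 in endothelial-like cells (1.39 CPM) and Lama4 in stellate-like cells (12.7 CPM), both labelled knockout. Nid1 in B-like cells is at 219 and 153 CPM, and open triangles stand for 0 counts at the limit that 3 counts give.

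Between the libraries, the vascular alpha chains stood higher in the library labelled knockout in endothelial-like cells and lower in stellate-like cells. Lama4 was at 210.0 CPM (202 to 218) in endothelial-like cells labelled control and at 337 CPM (330.4 to 344) in those labelled knockout, a log2 ratio of 0.68 (0.62 to 0.75). In stellate-like cells Lama4 was at 39.5 and 12.7 CPM, with a log2 ratio of −1.64 (−2.11 to −1.19). That lower level lay within the 4.31 to 27.1 CPM of the 7 hepatocyte-like and immune classes in the same library, whose median was 7.35 CPM. T-like cells were the highest of these. The stellate-like interval (9.55 to 16.5) overlapped that of some of these classes and lay above that of Kupffer-like cells (5.93 to 8.28). Lama5, the alpha chain typical of mature vessels and epithelia, was at 16.4 CPM (14.3 to 18.8) in endothelial-like cells labelled control and at 26.2 CPM (24.3 to 28.3) in those labelled knockout, a log2 ratio of 0.67 (0.45 to 0.90). In stellate-like cells it was at 88.0 CPM (78.8 to 98.0) and 16.1 CPM (12.6 to 20.4), a log2 ratio of −2.45 (−2.84 to −2.07). The order of the classes for Lama5 thus differed between the libraries: stellate-like cells were above endothelial-like cells in the library labelled control, and below them in that labelled knockout. For both alpha chains the sign was opposite in the 2 classes, with no overlap of the intervals between the libraries in either class.

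The beta chains differed by less than 1.5-fold in stellate-like cells. Lamb1 was at 639 CPM (614 to 665) in stellate-like cells labelled control and at 542 CPM (521 to 565) in those labelled knockout, a log2 ratio of −0.24 (−0.32 to −0.16). In endothelial-like cells Lamb1 was at 3.10 and 1.39 CPM from 41 and 37 counts, with a log2 ratio of −1.16 (−1.84 to −0.48), the lowest of the 10 in that class. The 7 classes of hepatocyte-like and immune cells spanned 1.56 to 3.89 CPM and 0 to 15.3 CPM for this gene, so the endothelial values are at background. Lamb2, the beta chain of mature vessels and the neuromuscular junction, had a log2 ratio of 0.25 (0.10 to 0.40) in endothelial-like cells and −0.01 (−0.35 to 0.32) in stellate-like cells.

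The gamma chain and Nid1 were lower in the library labelled knockout in both classes. Lamc1, the gamma chain shared by most laminins, was at 161 CPM (154 to 168) and 85.3 CPM (81.8 to 88.9) in endothelial-like cells, a log2 ratio of −0.91 (−1.001 to −0.83). In stellate-like cells Lamc1 was at 1269 CPM (1233 to 1305) and 751 CPM (725 to 777), a log2 ratio of −0.76 (−0.82 to −0.69). Nid1, which encodes the main nidogen, was at 765 CPM and 576 CPM in endothelial-like cells. Its log2 ratio there was −0.41 (−0.45 to −0.37), which is less than 1.5-fold. In stellate-like cells Nid1 was at 1596 and 995 CPM, with a log2 ratio of −0.68 (−0.74 to −0.63). Nid2, its paralogue, was at 9.99 and 6.66 CPM in endothelial-like cells, with a log2 ratio of −0.59 (−0.92 to −0.25) that sits at the edge of 1.5-fold. In stellate-like cells Nid2 was at 83.8 and 74.5 CPM, a log2 ratio of −0.17 with an interval that spans 0 (−0.40 to 0.06).

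Hspg2 differed between the libraries mainly in stellate-like cells, and Agrn by about the same ratio in both classes. Hspg2 was at 411 CPM (399.96 to 422) and 371 CPM (363 to 378) in endothelial-like cells, a log2 ratio of −0.15 (−0.20 to −0.10), and trimmed-mean scaling moved this ratio to 0.00. In stellate-like cells Hspg2 was at 218 CPM (204 to 234) and 121 CPM (111 to 132), a log2 ratio of −0.85 (−1.01 to −0.69). Agrn had log2 ratios of −0.48 (−0.61 to −0.35) and −0.49 (−0.77 to −0.21) in the 2 classes.

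Sparc was lower in the library labelled knockout in both main classes. It was at 3037 CPM (3007 to 3067) and 1912 CPM (1895 to 1929) in endothelial-like cells, a log2 ratio of −0.67 (−0.69 to −0.65). In stellate-like cells it was at 8883 CPM (8788 to 8978) and 5023 CPM (4957 to 5091), a log2 ratio of −0.82 (−0.85 to −0.80). In the 7 hepatocyte-like and immune classes Sparc was at 68.9 to 114 CPM labelled control and 23.1 to 47.0 CPM labelled knockout, with no overlap between the libraries. These levels were at most 1.29% of the stellate-like one in the same library. In Kupffer-like cells Sparc was at 3.77% and 2.46% of the endothelial-like level, and the summed endothelial markers at 4.89% and 5.91%. Whether this Sparc came from those cells or from stray RNA was not tested. Contractile mesenchymal-like cells differed in sign, at 15417 and 19168 CPM from 106 and 16 cells, a log2 ratio of 0.31 (0.27 to 0.35).

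**Figure D2:**
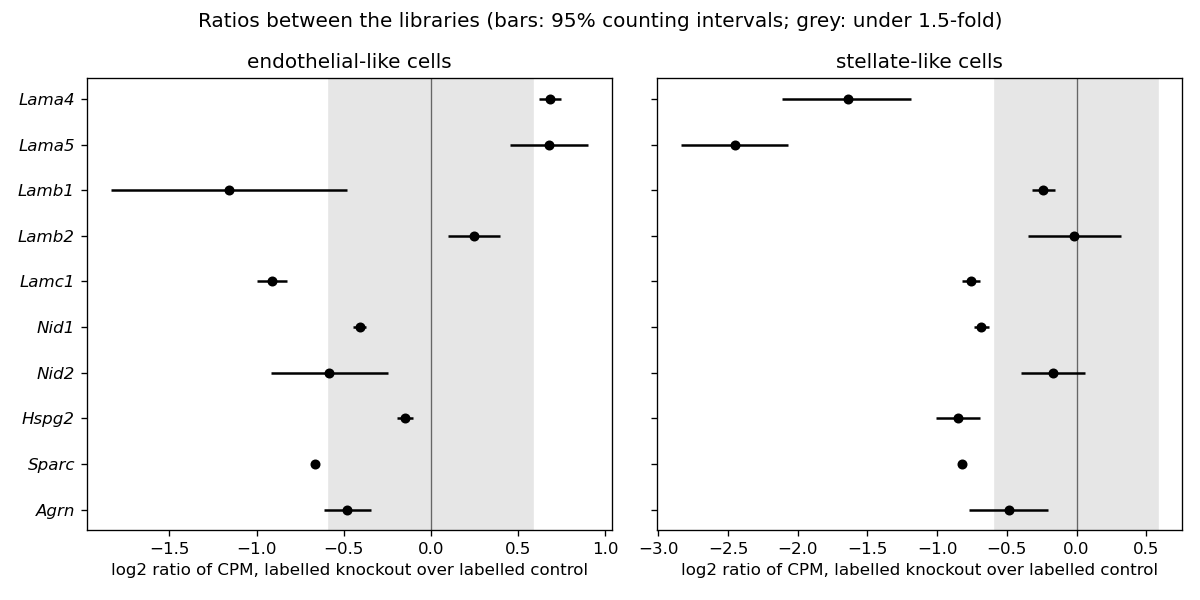
Log2 ratio of CPM, labelled knockout over labelled control, for each gene in endothelial-like (left) and stellate-like cells (right), with 95% counting intervals and grey shading for less than 1.5-fold. Lama4 and Lama5 lie right of the shading on the left panel and far left of it on the right panel, at 0.68 and 0.67 against −1.64 and −2.45.

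Called by size alone, at least 1.5-fold with at least 20 counts over both libraries, 4 of the 10 genes were lower in endothelial-like cells (Lamb1, Lamc1, Nid2 and Sparc) and 2 were higher (Lama4 and Lama5). Of all 14312 genes measured in that class, 20.8% were lower and 7.97% higher. Nid2 was at the edge of the threshold and Lamb1 at the level of background. The median log2 ratio of the 10 was −0.44, against −0.09 over all genes. Trimmed-mean scaling added 0.15 to every endothelial log2 ratio, and with it 2 were lower (Lamb1 and Lamc1) and 2 higher, since Sparc came to −0.52. Lama4 and Lama5 came under 1.5-fold, at 0.56 and 0.56, when per-cell CPM values were averaged, and at 0.57 and 0.54 in Leiden clusters. In stellate-like cells 6 were lower (Lama4, Lama5, Lamc1, Nid1, Hspg2 and Sparc) and 0 higher, and all 10 ratios were below 0. The background there was 12.9% lower and 9.31% higher of 11752 genes, with a median of −0.01 against −0.72 for the 10. Lama5 lay below 98.8% of all genes in stellate-like cells and Lama4 below 97.5%.

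**Figure D3:**
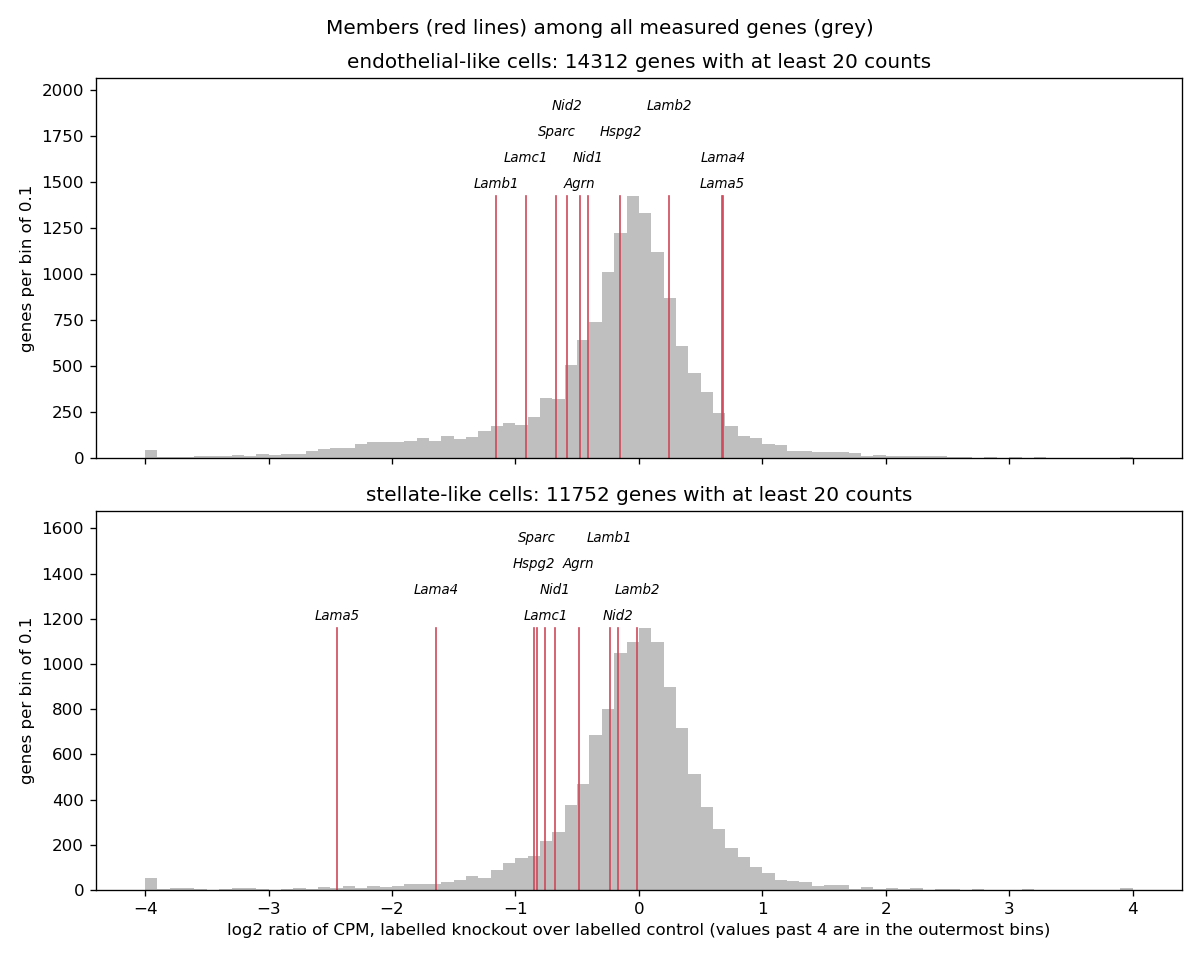
Distribution of log2 ratios, labelled knockout over labelled control, of all measured genes (grey, genes per bin of 0.1) in endothelial-like (top) and stellate-like cells (bottom), with the 10 genes as red lines. In endothelial-like cells the lines span −1.16 to 0.68, and in stellate-like cells all lie at or left of 0, from −2.45 to −0.01.

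Other signals moved with the stellate comparison. The summed level of the 6 contractile markers in stellate-like cells was 1841 CPM labelled control and 871 CPM labelled knockout, with Cnn1 at 0 in both. The 4 cycling genes summed to 278 and 12.0 CPM and the 9 stellate markers to 14986 and 23650 CPM. Endothelial markers were at 584 and 601 CPM, 8 of 8 detected in both. In the 220 and 377 stellate-like cells of low contractile score, a division chosen after seeing the data, the log2 ratio of Lama5 was −2.65 and that of Lama4 −0.60, and 4 genes were lower in place of 6. In endothelial-like cells the stellate markers summed to 156 and 127 CPM, the mesenchymal markers to 120 and 49.3 CPM and the cycling genes to 396 and 121 CPM. The part of the stellate and mesenchymal markers in the endothelial ratios was not tested. Leaving out endothelial-like cells of high cycling score, a choice made after seeing the data, kept 1511 and 3091 cells. The endothelial ratio of every gene described here then kept its sign.

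The contractile mesenchymal-like and mesothelial-like classes rest on few cells. In contractile mesenchymal-like cells 5 genes were lower and 1 was higher, against 29.4% and 12.5% of 8795 genes. Lamb1 was at 405 CPM (376 to 436.5) labelled control and 79.6 CPM (52.0 to 117) labelled knockout, and Lamb2 at 67.7 CPM (56.0 to 81.2) and 141 CPM (103 to 188). In mesothelial-like cells 6 genes were lower and 1 higher, against 25% and 17.8% of 6642 genes. Lama5 was at 277 CPM (237 to 323) and 45.0 CPM (22.5 to 80.5) there, and Lama4 at 39.9 CPM (25.5 to 59.3) and 168 CPM (120.3 to 227).

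Within the endothelium, Lama4 and Lamc1 differed between periportal and pericentral cells in both libraries. Endothelial-like cells were divided by subset markers into periportal, pericentral, large-vessel, angiogenic and Cyp26b1-marked cells and the rest. Lama4 was lowest in the pericentral subset, at 114 CPM (94.8 to 136) and 150.1 CPM (134 to 167), against 286 CPM (269 to 305) and 458 CPM (444 to 472) in the periportal subset. Lamc1 had the reverse order between these subsets, at 210.5 CPM (184 to 239) and 155 CPM (139 to 172) pericentral and 134 CPM (123 to 147) and 69.7 CPM (64.4 to 75.4) periportal. In cells labelled control, Hspg2 was at 404 CPM pericentral and 401 CPM periportal, and Sparc at 2989 and 3009 CPM, with overlapping intervals. Lama5 was highest in large-vessel cells, at 59.6 CPM (39.6 to 86.2) and 45.3 CPM (30.1 to 65.4), the latter overlapping the 33.8 CPM (26.6 to 42.4) of pericentral cells. The direction between the libraries across the 6 subsets was even for some genes and divided for others. Sparc was below 0 in 6 of 6, with log2 ratios from −0.85 to −0.33 and every interval below 0. Agrn was below 0 in 6 of 6, with 4 intervals below 0. Lama4 was above 0 in 5 of 6, from 0.40 in pericentral to 0.78 in angiogenic cells, and at −0.02 in the Cyp26b1 subset. Lamc1 was below 0 in 5 of 6, from −1.47 in large-vessel to −0.44 in pericentral cells, and at 0.06 in the Cyp26b1 subset. Lama5 was above 0 in 3 of 6 and below 0 in 3, from −0.47 in angiogenic to 0.88 in the remaining cells, with 2 intervals above 0 and 0 below. Nid1 was below 0 in 5 of 6, with 4 intervals below 0, and Lamb2 above 0 in 5 of 6, with 2 intervals above 0. Hspg2 was above 0 in 4 of 6, at 0.08 or less and with intervals that span 0. Its 1 interval that excludes 0 was below 0, in periportal cells (−0.27, −0.37 to −0.18). Nid2 was below 0 in 3 of the 5 subsets where it was measured, with 1 interval below 0. Lamb1 was measured in 1 subset. By size, 4 of 10 measured genes were lower and 2 higher in periportal cells (15% and 8.45% of all genes measured there). In large-vessel cells 4 of 8 were lower and 0 higher (17.6% and 14.3%). In pericentral cells 2 of 9 were lower and 2 higher (15.6% and 13.5%). Only 1 of 9 was lower and 1 higher in angiogenic cells (15.8% and 9.07%), and likewise in the Cyp26b1 subset (40.6% and 14.5%). In the remaining cells 1 of 9 was lower and 2 higher (19.6% and 8.58%). Among the genes so called, the intervals of Lamb1 in periportal, Lama5 and Nid2 in pericentral and Lamb2 and Nid2 in Cyp26b1-marked cells span 0. The Cyp26b1 subset had 17 cells labelled control and 1076 labelled knockout, so its ratios rest on few cells labelled control. The subset shares differed between the libraries, with angiogenic cells at 22.4% and 5.05% of the class and Cyp26b1-marked cells at 1.07% and 34.4%. Without the Cyp26b1 subset, an alternative chosen after seeing the data, Lama4 had a log2 ratio of 0.82 and Sparc one of −0.66.

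**Figure D4:**
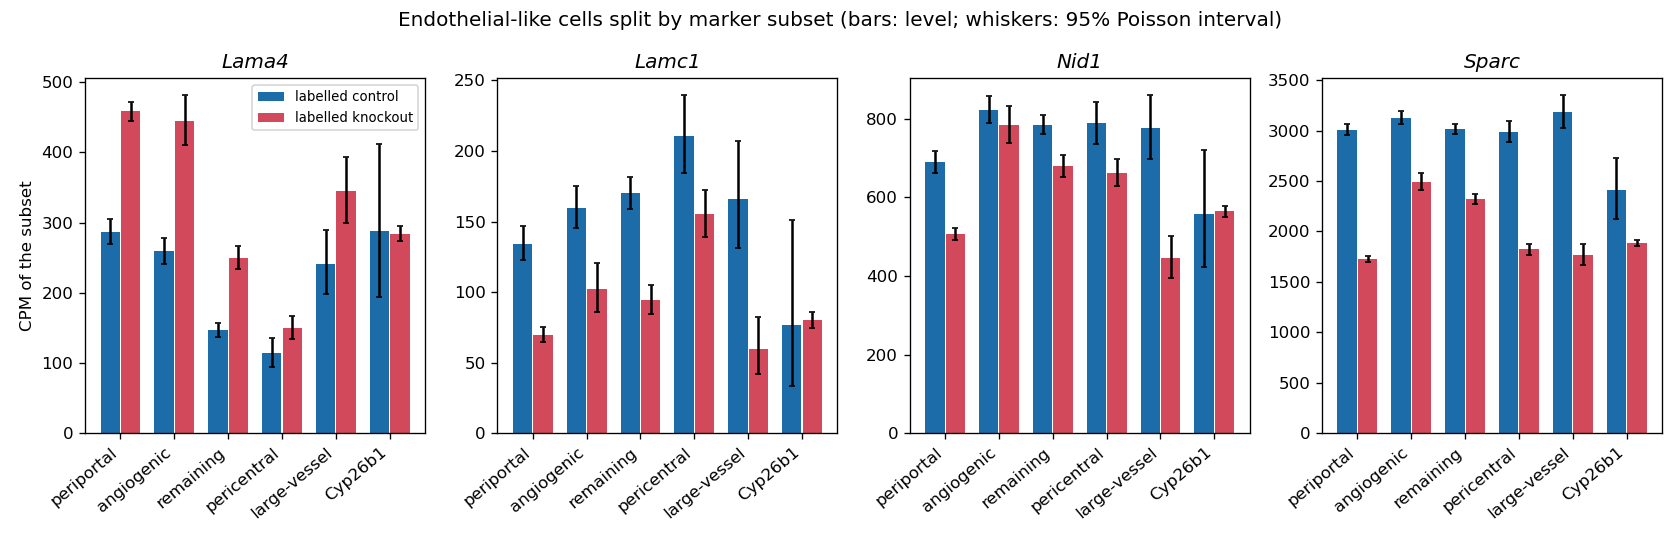
Level (CPM of the subset) of Lama4, Lamc1, Nid1 and Sparc in 6 endothelial-like subsets, blue for the library labelled control and red for that labelled knockout, with 95% Poisson intervals as whiskers. Lama4 bars are taller for labelled knockout in all but the Cyp26b1 subset, and Sparc bars are shorter in all 6.

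Related genes are given by list. Over all measured genes the shares were 20.8% lower and 7.97% higher in endothelial-like cells and 12.9% and 9.31% in stellate-like cells, with median log2 ratios of −0.09 and −0.01. Of 6 measured collagens of basement membranes, 4 were lower and 2 higher in endothelial-like cells. In stellate-like cells 3 were lower and 1 higher, and the median log2 ratios were −0.76 and −0.50 in the 2 classes. Among the lower ones in endothelial-like cells, Col4a5 had 10 and 12 counts, with an interval that spans 0, and Col18a1 had 43 and 26. Among those called in stellate-like cells, Col18a1 (lower) had 16 and 11 counts, with an interval that spans 0, and Col15a1 (higher) had 7 and 38. Col4a2, a chain of the common type IV collagen, was at 841 and 431 CPM in endothelial-like cells and at 1827 and 694 CPM in stellate-like cells, while Col4a4, a chain of a rarer type IV collagen, was at 4.09 and 24.9 CPM in endothelial-like cells. Col4a1 was at 3643 and 1364 CPM in stellate-like cells, a log2 ratio of −1.42. Among 12 receptors of laminin, perlecan and agrin, 6 were lower and 0 higher in endothelial-like cells, and 5 lower and 1 higher in stellate-like cells. Itga2 and Sdc2, among the lower ones in endothelial-like cells, had 39 and 18 counts each. Itgb1 (1005 and 940 CPM), Itga1 (988 and 1071 CPM) and Dag1 (192 and 200 CPM) differed there by less than 1.5-fold. Those called in stellate-like cells include Itga2 (26 and 6 counts) and Itga6 (47 and 12), both lower, and Itga7 (6 and 19), the higher one. Itga3, an integrin chain of laminin receptors, was at 46.5 and 6.51 CPM in endothelial-like cells, and Mcam, an endothelial adhesion molecule that binds Lama4-containing laminin, at 215 and 86.2 CPM. The median log2 ratios of the receptors were −0.47 and −0.56. Of 12 genes that remodel the membrane, 8 were lower and 1 higher in endothelial-like cells (5 and 1 of 11 in stellate-like cells). In endothelial-like cells the protease genes Adamts4 and Adamts5 were at 23.5 and 1.51 CPM and at 24.6 and 2.52 CPM. Mmp2, Mmp9 and Bmp1, also among the lower ones there, were at 1.74 CPM or less, and the intervals of Mmp2 and Mmp9 span 0. Of 8 measured further membrane and Sparc-family genes, 7 were lower and 0 higher in endothelial-like cells, among them Fstl1 at 50.3 and 11.7 CPM. Smoc1, Smoc2, Spock2 and Egflam, also among the lower ones, were at 1.29 CPM or less there in both libraries. The intervals of Smoc2 and Spock2 span 0, so this count rests largely on genes with few counts. Of 10 in stellate-like cells 4 were lower and 4 higher. Of 4 measured other laminin chains and Ntn4, 1 was lower and 1 higher in endothelial-like cells, a share of lower genes near that of all genes, and Lama2 and Ntn4 were lower in stellate-like cells, at 172 and 91.7 CPM and at 97.7 and 41.7 CPM. Of the 8 matrix chaperones and modifiers, 2 were lower and 1 higher in endothelial-like cells, again near the share over all genes, and 2 of 7 were lower in stellate-like cells, including the collagen lysyl hydroxylase Plod2 at 239 and 73.5 CPM. Median log2 ratios in endothelial-like and stellate-like cells were −0.65 and −0.34 for remodelling genes, −1.33 and 0.10 for further membrane and Sparc-family genes, 0.30 and −0.31 for other laminin chains and Ntn4, and −0.35 and −0.48 for chaperones and modifiers.

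Outside the vessel wall, Nid1 was well above the other immune classes in B-like cells. It was at 219 CPM (187 to 254) labelled control and 153 CPM (131 to 179) labelled knockout. It was detected in 54.2% and 31.8% of B-like cells, against 4.23% and 3.77% of T-like cells, with median depths of 4550 and 4054 counts in B-like and 4907 and 4840 in T-like cells. The B-like level was 28.6% and 26.6% of the endothelial-like level for Nid1. It was 3.58% and 2.24% for Sparc and 3.41% and 3.59% for the summed endothelial markers. Hspg2 was at 3.82% and 1.80% and Lama4 at 8.72% and 5.64%. Lamc1, however, was at 25.2% and 52.5%, so Nid1 was not the only member with a high share in B-like cells. Thinned to 4000 counts per cell, with 37 and 109 shallower B-like cells left out, 50.0% and 31.6% of B-like cells had Nid1. Of 4 genes measured in B-like cells, Sparc was lower and 0 were higher by size, against 12.5% and 15.8% of all genes. Of 9 measured in Kupffer-like cells, 2 were lower (Lamc1 and Sparc) and 2 higher (Lamb2 and Nid2), against 13.6% and 7.67%. Nid2 in Kupffer-like cells was at 14.2 CPM (12.2 to 16.4) and 21.4 CPM (19.4 to 23.5), above the endothelial-like level of that gene in both libraries. After thinning, 6.29% and 6.97% of Kupffer-like cells had Nid2, so the difference seen without thinning (14.8% and 26.5%) moved with median depths of 12036.5 and 16441.5 counts. Nid1 in hepatocyte-like cells was at 41.4 CPM (33.4 to 50.9) and 5.57 CPM (3.35 to 8.70).

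Single cells carried several of the genes at once. Thinned to 4000 counts, an endothelial-like cell had a median of 4 of the 10 genes in both libraries and a stellate-like cell a median of 5, and the share of stellate-like cells with 5 or more was 74.2% labelled control and 57.4% labelled knockout. A Kupffer-like cell had a median of 0. Lama5 was detected in 40.6% and 10.7% of stellate-like cells (25.3% and 4.52% after thinning), and Lama4 in 66.5% and 78.0% of endothelial-like cells (49.7% and 64.0% after thinning). Lama4 was in 4.93% and 5.44% of T-like cells, whose median depths were 4907 and 4840 counts (endothelial-like cells: 6758 and 7320).

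Levels across 18 class and library points (9 classes with at least 50 cells in each library, log2 of CPM plus 1) placed other genes near some of the 10. Sparc was most like Col4a1 (Pearson r = 0.99) and Col4a2 (r = 0.99), Lamb1 like Gucy1b1 (r = 0.98), Hspg2 like Ltbp4 (r = 0.98) and Lama4 like Sema6a (r = 0.94). Agrn was most like Lamb2 (r = 0.95). The points share libraries, depth and the contrast between wall and immune cells, and no likeness was tested.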

How the data were processed

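Gene counts per cell barcode of liver cells were deposited by the authors, 1 matrix per library, from the BD Rhapsody whole-transcriptome kit per the labels' protocols. GRCm39 was named in the submitters' processing notes. The aligner, read collapsing and cell calling were not given in the sources used here. The matrices hold whole, unnormalized counts.

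Kept cells had 300 genes or more, 500 counts or more and no more than 25% of mitochondrial counts (Scanpy 1.11.5). Scrublet's own threshold marked 0.0126% and 0.0114% of cells and so did not work. The top 5% of scores, 371 and 438 cells, were removed instead. A cell joined a class when the mean log level of its markers, divided by that of the 50 highest cells, reached 0.4 and every other lineage stayed under 0.25. These thresholds were set after seeing the cells, and a class is a rebuilt name. In the endothelial-like class 324 and 399 cells lay within 0.05 of either limit.

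Counts were summed per class and library and scaled to CPM, giving levels an exact Poisson interval and ratios an exact conditional one, all at 95%. A difference counts as higher or lower at 1.5-fold with at least 20 counts in all. Depth was equalised by thinning cells to 4000 counts. The ratio code was tested on simulated counts. Alternatives included edgeR 4.0.16 scaling, Leiden clusters, other filters and gates. Named genes were all members, Ccn2, up to 4 genes per list with the largest ratio of at least 1.5-fold, and the 3 genes most like each member, of which some are printed. Members and lists were chosen with earlier results of these data known.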

Additional observations from a re-analysis of the deposited data

Results flagged for a closer look

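The direction of Lama4 and Lama5 between the libraries differed between classes, without a test of the difference. The log2 ratio of Lama4 was higher by 2.324 in endothelial-like than in stellate-like cells (0.68 against −1.64, and −0.60 in stellate-like cells of low contractile score) and by 2.0894 than in contractile mesenchymal-like cells (−1.41). That of Lama5 was higher by 3.1219 in endothelial-like than in stellate-like cells (0.67 against −2.45) and by 3.2989 than in mesothelial-like cells (−2.62). The contractile mesenchymal-like class had 16 cells and the mesothelial-like class 13 in the library labelled knockout. With 1 library per label there is no replicate check.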

How the results depend on the processing

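Of 488 values of single genes under 16 alternatives, 423 moved by less than their counting interval, 65 moved more and 0 changed sign while past 1.5-fold. The alternatives with no minimum count and with a minimum of 100 counts leave each ratio as it was. Their values are therefore among the 423 by construction. The count of genes lower in endothelial-like cells, 4, became 2 under trimmed-mean scaling and 2 under median-of-ratios scaling, which add 0.15 and 0.14 to each endothelial log2 ratio. The count of genes higher there, 2, became 1 with a stricter marker gate, 0 with Leiden clusters, 0 with the mean of per-cell CPM and 1 with thinned cells. The log2 ratio of Lama4 in that class ranged from 0.56 to 0.84 and that of Lama5 from 0.54 to 0.83, so both kept their sign on either side of 1.5-fold. In stellate-like cells the log2 ratio of Lama4 ranged from −1.75 to −0.60, the latter in cells of low contractile score, and that of Lama5 from −2.74 to −2.23, and 4 to 6 genes were lower and 0 higher under every alternative run. No paired analysis was possible because each label has 1 library. Intervals cover counting error, and low counts limit Lamb1 and Nid2 in endothelial-like cells, while few cells limit the contractile mesenchymal-like and mesothelial-like classes.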
